A study of Mus musculus with 15 samples.

Results

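A set of genes that mouse germ cells use to build and join meiotic chromosomes, Sycp1, Sycp2, Sycp3, Syce1, Stag3, Smc1b, Rec8, Hormad1, Dmc1 and Mei1, was followed in kidney RNA and kidney DNA after loss of Dnmt1. They were chosen by name for their roles in meiosis, with earlier results of these data known. The same holds for the gene lists and motifs below, so their shares beside all genes are descriptions and not independent support. All 10 were found among the 46517 genes of the RNA count tables. In the methylation data, 99 of the 380162 cytosine positions that could be compared between control and knockout lay inside these genes or within 2000 bases of them.

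The study measured mRNA by sequencing in 6 samples and DNA methylation by reduced representation bisulfite sequencing (RRBS) in 9 samples of C57BL/6 mice. RRBS reads methylation at cytosines of CpG-rich restriction fragments, so only part of each gene is seen. The controls (3 for RNA, 3 for RRBS) were at postnatal day 0 and carried floxed Dnmt1 alleles (Dnmt1 f/f) without Cre, and the knockouts (KO, 3 for RNA, 3 for RRBS) were of the same age with Six2Cre and Dnmt1 f/f. Six2 drives the recombinase, so deletion is directed to nephron progenitors and the cells that come from them. The 3 RRBS adults were wild type mice of 6 weeks and differ from the controls in age and in Dnmt1 alleles. The source label names Six2+ cells, while the extraction text names whole kidneys, and the samples are called kidney samples here. In such bulk samples, fewer cells with a transcript and less transcript per cell cannot be told apart, and a level can average over cells with and without the deletion. The labels do not say that replicates are separate animals, so p-values measure only the spread between these samples.

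DNMT1 copies CpG methylation onto the new strand after DNA replication. Promoters of many genes for germ cell functions are methylated and silent in somatic tissues, kidney included. In a meiotic cell, cohesin complexes with the meiosis-specific subunits REC8, STAG3 and SMC1B hold sister chromatids along an axis that also contains SYCP2, SYCP3 and HORMAD1. The synaptonemal complex then zips homologous axes together with SYCP1 as its transverse filament and SYCE1 in its central element. MEI1 is needed to form the DNA breaks of meiotic recombination, and the recombinase DMC1 repairs them on the homologous chromosome.

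The promoters below are shown because they hold letters that are known as binding motifs of repressors of germ cell genes: CACGTG, the E-box bound by MGA with MAX, and TCCCGC, an E2F6 motif. The 250 bases before the annotated start were taken from RefSeq (GRCm38.p6) and are written 5′ to 3′ on the gene's strand, with CACGTG and TCCCGC (or GCGGGA, its reverse complement) in capitals. All 10 genes matched an entry in that promoter table.
Hormad1, chr3:95559427-95559676, plus strand: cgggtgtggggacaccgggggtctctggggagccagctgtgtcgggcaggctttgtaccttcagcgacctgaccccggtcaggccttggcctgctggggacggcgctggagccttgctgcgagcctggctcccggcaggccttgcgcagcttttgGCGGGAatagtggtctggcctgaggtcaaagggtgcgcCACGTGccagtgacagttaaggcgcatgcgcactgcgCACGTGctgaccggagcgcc
Sycp3, chr10:88459337-88459586, plus strand: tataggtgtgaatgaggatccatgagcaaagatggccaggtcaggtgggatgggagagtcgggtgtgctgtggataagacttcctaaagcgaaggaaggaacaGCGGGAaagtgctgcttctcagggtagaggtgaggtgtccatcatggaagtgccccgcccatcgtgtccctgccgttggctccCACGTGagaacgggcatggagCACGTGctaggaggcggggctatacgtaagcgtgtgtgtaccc
Stag3, chr5:138280259-138280508, plus strand: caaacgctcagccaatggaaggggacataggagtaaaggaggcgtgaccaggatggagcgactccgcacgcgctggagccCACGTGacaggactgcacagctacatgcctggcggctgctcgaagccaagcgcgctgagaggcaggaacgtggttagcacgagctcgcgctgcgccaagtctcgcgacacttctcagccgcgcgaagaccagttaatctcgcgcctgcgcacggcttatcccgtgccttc
CACGTG was found in 4 of the 10 promoters, those of Hormad1, Sycp3, Stag3 and Sycp1, and in 6.02% of 32851 RefSeq promoters of the same length. In Hormad1 it began 57 and 20 bases before the start, in Sycp3 64 and 43 bases, in Sycp1 94 bases and in Stag3 170 bases. TCCCGC on either strand was found in 5 of the 10, those of Hormad1, Sycp3, Smc1b, Rec8 and Dmc1, and in 16.9% of all promoters. A further motif, CNCCTCAG on either strand, was in none of the 10 and in 6.42% of all promoters. CCGG, the site cut in RRBS, was in 4 of the 10 and in 47.1% of all promoters. No match of CACGTG overlapped a match of TCCCGC. A match is a description of the sequence and not a measured binding site. Stag3 had 26 CpGs in its 250 bases, Smc1b 25, Hormad1 19 and Sycp1 17, while Mei1 had 8 and Sycp2 7, and the median over all promoters was 6.

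RNA libraries held between 26773937 and 34102567 gene counts. Dnmt1, the targeted gene, had 5908, 4826 and 6921 counts in the controls and 3526, 3378 and 2467 in KO. Its log2 fold change was -0.74 (SE 0.12), with an adjusted p of 0.00577 in edgeR's quasi-likelihood test with Benjamini-Hochberg adjustment over 18132 genes, the test used for RNA below. The 8 kidney markers listed were present in every library, and 4 of them, Umod, Nphs1, Slc34a1 and Wt1, were called lower in KO. The other 4 were not called, with log2 fold changes of 0.20 for Six2, 0.53 for Gata3, -0.22 for Pax2 and -0.48 for Cdh16. Control 3 stood apart in Slc34a1, a proximal tubule transporter, with 56377 counts against 14105 and 12567 in the other controls. RRBS libraries held between 18424875 calls (KO 3) and 88765177 calls (control 2).

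Of the 10 genes, 5 rose in KO: Hormad1, Syce1, Sycp2, Stag3 and Smc1b. Rec8, Dmc1, Sycp1 and Sycp3 were tested and did not pass, Mei1 had too few reads to be tested, and none was lower. Over all genes tested, 6.36% were called higher and 8.23% lower. The median log2 fold change of the 9 tested members was 1.46, against 0.00 over all genes tested, and Hormad1 lies above that median at its lower bound too. None of the 9 had an unadjusted p under 0.05 in the lower direction in edgeR, and DESeq2 and limma-voom each called 0 lower.

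**Figure D1:**
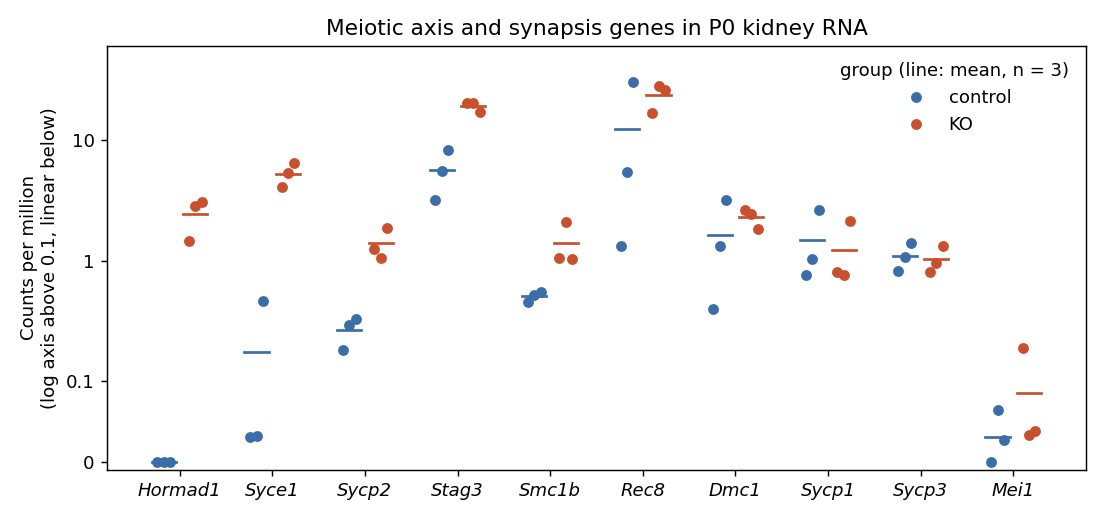
Counts scaled to 1000000 per library (CPM) of each gene in the 3 control (blue) and 3 KO (orange) samples, with lines at the means, on an axis that is logarithmic above 0.1 and linear below. All KO points lie above all control points for Hormad1, Syce1, Sycp2, Stag3 and Smc1b, while the groups overlap for the other 5 genes. The share of all genes separated in this way was not computed. It was 6 of the 15 mitotic relatives and 8 of the 24 repressor genes listed below, of which 0 and 1 were called higher.

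Hormad1 (chr3:95559677-95587863) encodes the HORMA-domain protein that marks axes which have not yet paired. It had 0 counts in all 3 controls and 47, 86 and 81 counts in KO. The KO mean was 2.45 ± 0.87 CPM (SD, n = 3), where CPM is the count scaled to a library of 1000000 counts after normalization by the trimmed mean of M-values (TMM). A floor of 3 counts over the controls together is 0.0298 CPM, so Hormad1 was at least 82.2-fold higher in KO (adjusted p 0.00123). It was the only member with no read in any control.

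Among the cohesin subunits, Stag3 and Smc1b rose. Stag3 (chr5:138272514-138312397), the subunit that replaces STAG1 and STAG2 in meiosis, had 105, 172 and 304 counts in the controls and 653, 614 and 448 in KO. Means were 5.67 ± 2.53 and 19.2 ± 1.86 CPM (SD, n = 3), and the log2 fold change was 1.75 (SE 0.32, adjusted p 0.0082). Gpc2, whose annotated span lies within that of Stag3, had 271, 321 and 674 counts in the controls and 867, 715 and 609 in KO (log2 fold change 0.99, SE 0.28, adjusted p 0.0501). Whether the authors' counting used strand is not given in the sources used here, so reads of overlapping genes on opposite strands cannot be told apart.

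Smc1b (chr15:85064689-85131957), the meiotic partner of SMC3, had 15, 16 and 20 counts in the controls and 34, 64 and 27 in KO. The groups did not overlap, at 0.506 ± 0.044 and 1.39 ± 0.61 CPM (SD, n = 3), and the log2 fold change was 1.46 (SE 0.39, adjusted p 0.0404). This was the least firm of the 5 calls. The adjusted p rose to 0.127 without control 1, 0.0925 without control 2, 0.079 without KO 1, 0.177 without KO 2, 0.0653 without KO 3 and 0.0955 with the replicate number as a block. Fam118a overlaps the Smc1b span and was read at 707 to 882 counts a library, with an adjusted p of 0.114.

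Rec8 (chr14:55618002-55625395), the kleisin subunit that is cleaved when meiotic chromosomes separate, did not pass the test. It had 43, 168 and 1119 counts in the controls and 532, 851 and 681 in KO, so control 3 was above every KO library and the other controls were below all of them. The log2 fold change was 0.92 (SE 0.86, adjusted p 0.56) with all libraries. Without control 3 it was 2.81 (adjusted p 0.00387), and in limma-voom with sample quality weights 3.10 (adjusted p 0.00327). Control 3 was also the control with the highest Slc34a1. Its part in the Rec8 result beyond these values was not tested.

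The axis core proteins differed. Sycp2 (chr2:178345295-178407776), which encodes a protein of the axis, had 6, 9 and 12 counts in the controls and 40, 32 and 49 in KO. Means were 0.267 ± 0.075 and 1.38 ± 0.42 CPM (SD, n = 3), a log2 fold change of 2.35 (SE 0.40, adjusted p 0.00581), and the groups did not overlap. Sycp3 (chr10:88459587-88473236), its partner in the axis, had 27, 33 and 51 counts in the controls and 26, 29 and 35 in KO. Its log2 fold change was -0.09 with a 95% interval from -0.88 to 0.70 (adjusted p 0.9), and its sign changed in limma-voom (0.07), without control 3 (0.12) and without KO 1 (0.06). Chpt1 overlaps Sycp3 and had 5487 to 10162 counts in the controls and 2560 to 2711 in KO (log2 fold change -1.28, SE 0.18, adjusted p 0.00302), and reads of the 2 genes cannot be told apart where they overlap.

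Of the synapsis proteins, Syce1 rose and Sycp1 did not pass. Syce1 (chr7:140777229-140787854) had 1, 1 and 17 counts in the controls and 131, 162 and 168 in KO. Means were 0.175 ± 0.25 and 5.25 ± 1.15 CPM (SD, n = 3), and the log2 fold change was 4.81 (SE 0.75, adjusted p 0.00424). Of the 19 control reads, 17 came from control 3, and without that library the log2 fold change was 7.21. Sycp1 (chr3:102818499-102936100) had 25, 32 and 96 counts in the controls and 26, 23 and 56 in KO. Its log2 fold change was -0.27 with a 95% interval from -1.60 to 1.05 (adjusted p 0.819), and its sign changed in limma-voom (0.07) and without control 3 (0.44). Reads of Sycp1 and Sycp3 were present in every control library.

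Of the recombination genes, Dmc1 (chr15:79561497-79605159) had 13, 41 and 117 counts in the controls and 85, 74 and 48 in KO. The groups overlapped through control 3, and the log2 fold change was 0.49 (SE 0.61, adjusted p 0.676). Without control 3 it was 1.43 (adjusted p 0.046), and in limma-voom 1.67 (adjusted p 0.0236). Mei1 (chr15:82070074-82126817) had 0, 2 and 1 counts in the controls and 6, 1 and 1 in KO and did not pass the filter on low counts. With no filter its log2 fold change was 1.42 and its adjusted p 0.562, so no difference was detectable at this depth.

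Control 3 had the highest control level of every member except Hormad1 and Mei1. With control 3 left out, 7 members were called higher instead of 5, the additions being Rec8 and Dmc1. Over all genes the calls also rose without it, from 1153 to 2512 higher and from 1493 to 2563 lower.

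**Figure D2:**
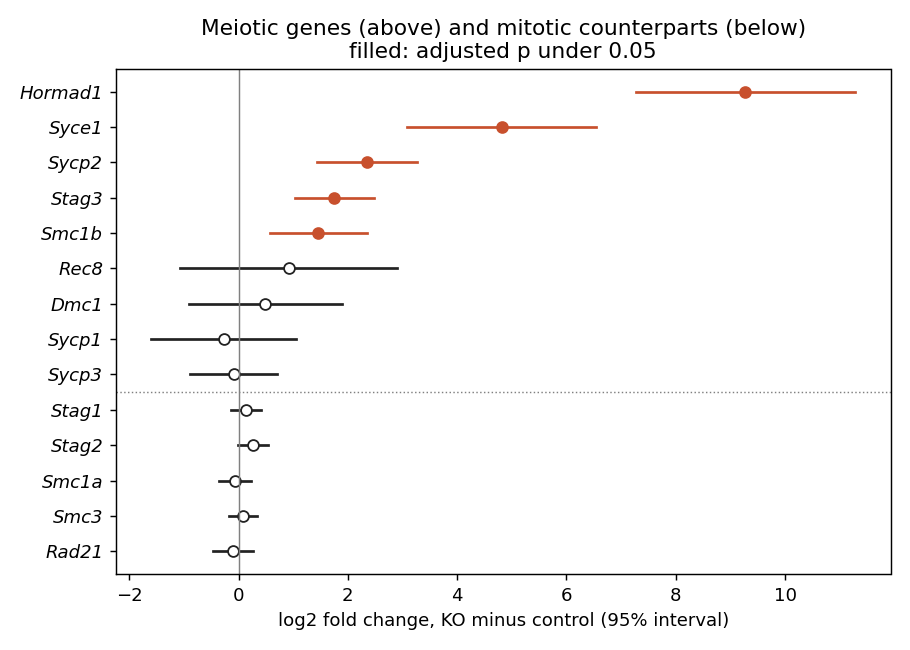
Log2 fold changes of KO minus control with 95% intervals for the 9 tested members (above the dotted line) and 5 mitotic counterparts (below it), with filled points at an adjusted p under 0.05. The value of Hormad1, with no control read, depends on the prior count and is not a bound. The mitotic counterparts lie between -0.10 and 0.26 on the log2 scale, and none is filled.

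The mitotic relatives of these proteins are used in every dividing cell. Of 15 listed cohesin, cohesin regulator and HORMA-domain genes, 15 were tested and 0 were called in either direction by edgeR. At an unadjusted p under 0.05, 4 were higher (Nipbl, Pds5b, Esco1 and Esco2, named after their values were seen) and 0 lower. DESeq2 called 1 higher and limma-voom 3. The log2 fold change of Smc1a was -0.07 with a 95% interval from -0.37 to 0.23, and its sign changed with upper quartile scaling (0.02) and without control 1 (0.03). It was 0.08 for Smc3 (-0.17 to 0.34), -0.10 for Rad21 (-0.47 to 0.26), 0.14 for Stag1 (-0.15 to 0.42) and 0.26 for Stag2 (-0.003 to 0.53).

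Other meiotic genes moved in part. Of 7 further axis and centromere cohesion genes, 4 were tested and 1 was called higher, Hormad2, the paralogue of Hormad1, with 2, 4 and 4 counts in the controls and 11, 17 and 21 in KO (adjusted p 0.0161). That call was lost without control 1, KO 2 or KO 3 (highest adjusted p 0.0673). Of 15 further synapsis genes, 10 were tested and 3 were higher. Fkbp6, an immunophilin required for synapsis, had 0 counts in every control and 75, 83 and 86 in KO (adjusted p 0.000493). Tex11, an X-linked meiotic gene, had 1 read over the 3 controls and 71, 72 and 99 in KO (adjusted p 0.000354). Six6os1, a central element gene, had 14, 17 and 21 counts in the controls and 97, 67 and 68 in KO (adjusted p 0.00181). The other central element genes on the list were Syce2, tested and not called (log2 fold change 0.14), and Syce3 and Tex12, which were too low to test. Syce3 had 0 counts in every library, while Tex12 had 0 in every control and 3, 13 and 19 in KO. Median log2 fold changes were 0.17 for the tested axis genes and 0.10 for the tested synapsis genes.

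Of 29 further recombination genes, 25 were matched and 22 tested, of which 6 were higher and 1 lower, with a median log2 fold change of 0.47. Mnd1, which works with DMC1 in strand exchange, had 196, 217 and 151 counts in the controls and 1033, 707 and 1085 in KO (log2 fold change 2.50, SE 0.28, adjusted p 0.000934). Ccnb1ip1, a crossover regulator, rose by 4.47 on the log2 scale (adjusted p 0.00399), from 6, 7 and 0 counts to 100, 67 and 97, and by 3.85 without control 3. Prr19, a crossover factor, rose by 2.49 (adjusted p 0.00792), and Tex15 rose by 2.09 (adjusted p 0.0138), a call lost without control 1 or KO 1 (highest adjusted p 0.0574). Shoc1 and Zcwpw1 were the other genes called higher, and Mcmdc2 was the gene called lower, with 128, 106 and 230 counts in the controls and 56, 49 and 41 in KO (log2 fold change -1.47, SE 0.30, adjusted p 0.0143). These last 3 are named after their values were seen, and the Mcmdc2 call was lost without any 1 of the KO libraries (highest adjusted p 0.0651).

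A list of 17 genes for meiotic entry and prophase also held germ cell genes of other roles, such as the piRNA genes Mov10l1 and Mael. Of the 17, 14 were tested, and 9 were higher and 0 lower, with a median log2 fold change of 1.89. Mov10l1 and Mael are among the 9. At an unadjusted p under 0.05, 0 were lower in edgeR, and DESeq2 and limma-voom called 0 lower. Dazl, an RNA-binding protein that licenses germ cells for meiosis, had 0, 5 and 4 counts in the controls and 2060, 1780 and 2532 in KO (adjusted p 3.67e-05). Stra8, the retinoic acid target that starts meiosis, had 0 counts in every control and 28, 32 and 22 in KO (adjusted p 0.00147). Mov10l1, a piRNA helicase, had 0 counts in every control and 171, 182 and 196 in KO (adjusted p 0.000222), and Mael, another piRNA factor, had 2 reads over the controls and 28, 30 and 49 in KO (adjusted p 0.00234).

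Genes of the repressor complex that reads the motifs above, and of DNA methylation, were mostly not called: of 24 tested, Mga was higher and Dnmt1 lower. Mga, the E-box binding scaffold, had 82.7, 95.7 and 91.1 CPM in the controls and 151.4, 136.6 and 124.3 in KO (log2 fold change 0.61, SE 0.12, adjusted p 0.011), a call lost without KO 1 or KO 2 (adjusted p 0.0606 and 0.0522). The log2 fold change was 0.22 for Pcgf6 (adjusted p 0.357), 0.31 for Uhrf1 (adjusted p 0.0806), -0.23 for Dnmt3b (adjusted p 0.32), -0.08 for E2f6 (adjusted p 0.769), -0.14 for L3mbtl2 (adjusted p 0.649) and 0.06 for Dnmt3a (adjusted p 0.84). Uhrf1, which guides DNMT1 to replicated DNA, was called higher in DESeq2, limma-voom, with upper quartile scaling and without control 3 (lowest adjusted p 0.0135). The sign of E2f6, L3mbtl2 and Dnmt3a changed in some alternatives.

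Markers of gonads, germ cells and adrenal were read beside these genes. The 12 gonad somatic markers summed to 14.4 to 24.3 CPM in the controls and 13.95 to 17.6 in KO. Of these 12, only Foxl2 was at 0 in every library. Of the 7 tested, edgeR called 0 (1 higher and 1 lower at an unadjusted p under 0.05, 0 in DESeq2, 1 higher in limma-voom). The 15 germ cell markers outside the meiotic axis summed to 2.31 to 3.75 CPM in the controls and 3.04 to 4.2 in KO. Of these 15, only Dppa3 was at 0 in every library. Of 3 tested, 1 was called, Gdf9, which was higher in KO (adjusted p 0.0468). In this list 1 was higher and 1 lower at an unadjusted p under 0.05, DESeq2 called 0 and limma-voom 1 higher. The 8 adrenal markers summed to 2.28 to 6.86 and 2.68 to 3.72 CPM, with 0 of 3 tested called (1 lower at an unadjusted p under 0.05, and in DESeq2 and limma-voom 1 lower).

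DNA methylation was read at 9 of the 10 genes. It was high in the controls over most of their measured positions and lower in KO. Of 99 positions with at least 10 calls in every P0 sample, 40 (40.4%) were called lower in KO by a logistic model on the calls, at an adjusted p under 0.05 over all positions and a change of 10 percentage points or more, and 0 higher. Over all 380162 positions, 35.2% were called lower and 0.127% higher. At an unadjusted p under 0.05, 0 member positions were higher. The 61 member positions with a control mean of at least 60% had 90.5% ± 0.32 methylation in the controls and 68.8% ± 4.55 in KO (SD, n = 3), and 37 of them (60.7%) were called lower. Among all positions with such a control mean 63.3% were called lower, and the mean went from 86.9% to 63.0%, so the member positions lay near the background of the whole assay.

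**Figure D3:**
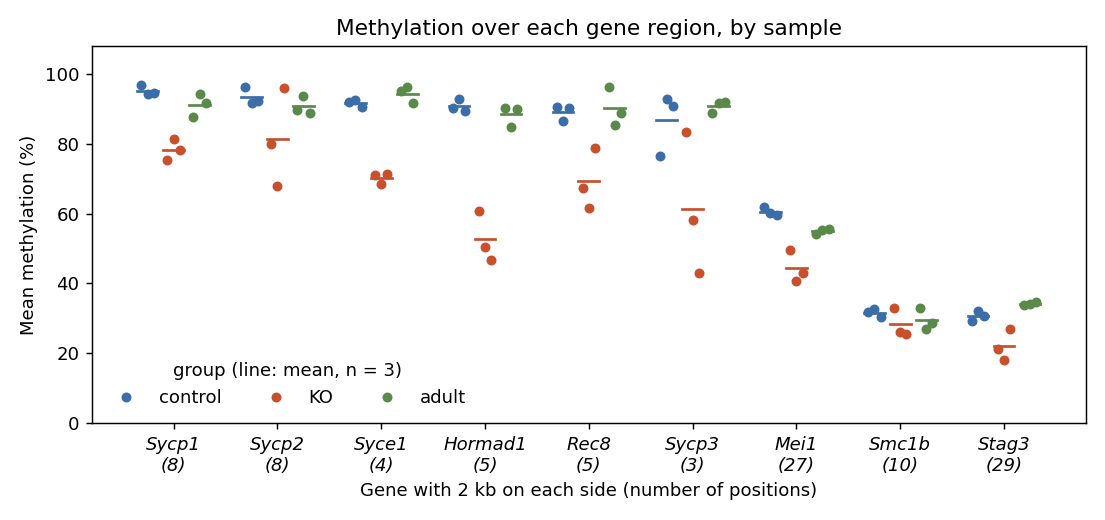
Mean methylation over the measured positions of each gene with 2 kb on each side, in every control (blue), KO (orange) and adult (green) RRBS sample, with the number of positions below each name and lines at the means. KO points lie below all control points for Sycp1, Syce1, Hormad1, Rec8, Mei1 and Stag3 and overlap the controls for Sycp2, Sycp3 and Smc1b.

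Hormad1 had the largest drop of the 9 region means. Hormad1 has 2 annotated starts in the promoter table, and distances of its RRBS positions are from the nearer start. At its 5 positions the controls had 90.2%, 92.8% and 89.3% and KO had 60.7%, 50.4% and 46.7%, and all 5 were called lower. Of these, 3 lie 421 to 450 bases before the start and averaged 87.6% ± 2.58 in the controls and 54.4% ± 8.80 in KO (SD, n = 3). The other 2, 5339 and 5362 bases after the start, averaged 95.5% ± 4.19 and 49.8% ± 7.15. The largest decrease was at chr3:95565018, from 92.9%, 100% and 100% to 53.8%, 58.8% and 41.7% (adjusted p 0.000114). Inside the promoter printed above and just past the start no position reached 10 calls in every P0 sample. With lower call minimums, chosen after the depth was seen, the positions near the start did not all differ alike. At a minimum of 3 calls, 17 positions from 235 bases before to 27 bases after the start averaged 89.4% ± 3.63 in the controls and 65.0% ± 13.5 in KO (SD, n = 3), with 69 to 213 calls per KO library. Among the positions that minimum leaves out are 7 located 54 to 8 bases before the start, where KO 3 had 2 calls each. These 7 averaged 81.6%, 92.0% and 89.3% in the controls and 91.0%, 87.5% and 85.7% in KO, so the groups overlapped there. The bounds of that stretch were not planned. With a minimum of 2 calls, all 31 positions averaged 90.4% ± 1.24 and 69.2% ± 9.78, and the 24 outside the stretch 91.25% ± 3.09 and 63.6% ± 12.0. The positions 4 and 1 bases before and 20 bases after the start, left out at 3 calls too, had 93.75% to 100% in the controls. In KO 1 and KO 2 they had 60% to 100%, and in KO 3 0% from 2 calls each. Of those 7, the positions 54 and 17 bases before the start lie inside the CACGTG matches. The first had 42.9%, 80.8% and 100% in the controls and 100%, 41.7% and 100% in KO, and the second 42.9%, 81.5% and 25% against 43.8%, 79.2% and 100%, from 2 to 27 calls each, so no difference was detectable there.

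Sycp1 is shown next because 7 CpGs of its promoter were read at full depth, 1 of them inside its CACGTG. The RefSeq sequence (GRCm38.p6) is on the minus strand, with the 7 CpGs that were read in capitals.
Sycp1, chr3:102936101-102936350, minus strand: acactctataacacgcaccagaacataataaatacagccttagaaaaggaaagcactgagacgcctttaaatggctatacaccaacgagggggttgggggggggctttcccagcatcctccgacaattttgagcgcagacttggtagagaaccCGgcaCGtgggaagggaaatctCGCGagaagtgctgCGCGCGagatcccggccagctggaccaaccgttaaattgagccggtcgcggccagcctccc
These 7 positions, 57 to 97 bases before the start, averaged 98.7%, 95.8% and 96.1% in the controls and 76.8%, 88.1% and 81.4% in KO. The CpG inside CACGTG, 92 bases before the start, had 100%, 97.9% and 93.3% in the controls and 73.3%, 79.2% and 70.0% in KO (adjusted p 0.038). On the other strand, 91 bases before the start, the same CpG had 85.7%, 100% and 100% in the controls and 91.7%, 63.6% and 66.7% in KO, from 3 to 22 calls. A position 599 bases before the start fell from 83.1% ± 0.38 to 51.8% ± 16.7 (SD, n = 3, adjusted p 4.79e-06), the largest decrease of the region. Sycp1 RNA did not pass the test, as given above.

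Syce1 and Rec8 had no measured position near the start. Syce1 was read at 4 neighbouring positions 9834 to 9850 bases into the gene. Their mean was 92.0%, 92.5% and 90.6% in the controls and 71.2%, 68.4% and 71.3% in KO, and all 4 were called lower, by 18.2 to 27.2 percentage points. The largest decrease was at chr7:140778005, from 93.7% ± 2.32 to 66.45% ± 11.9 (SD, n = 3, adjusted p 0.000137). Rec8 was read at 5 positions 3097 to 8793 bases after the start, with 90.4%, 86.4% and 90.1% in the controls and 67.4%, 61.6% and 78.7% in KO, and 3 of 5 were called lower. The largest decrease among those 3 was at chr14:55621263, from 90.8% ± 3.43 to 66.1% ± 3.80 (SD, n = 3, adjusted p 0.000755). The position at chr14:55626959 had 88.5% ± 11.01 in the controls and 59.1% ± 15.8 in KO and was not called (adjusted p 0.143).

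Among the genes read at full depth, Stag3 and Smc1b differed in that their measured positions within 1000 bases before the start had low methylation in the controls. Stag3 was read at 29 positions, 20 of them under 20% in the controls and 7 called lower in KO. The 9 positions 470 to 742 bases before its start averaged 1.22% in the controls and 0.94% in KO, and they flank the start of Gpc2, which lies 572 bases away on the opposite strand. The annotated start of Stag3, at chr5:138280509, lies inside the gene span, and so do these 9 positions. In the comparison with adults, 18 positions within 1000 bases of the start on either side had a control mean of 22.1% ± 1.35 (SD, n = 3). The 7 positions 16990 to 20016 bases after the start averaged 85.3%, 90.1% and 91.5% in the controls and 59.4%, 52.9% and 71.5% in KO. The largest decrease was at chr5:138300303, from 93.4% ± 6.83 to 46.5% ± 11.2 (SD, n = 3, adjusted p 2.62e-05).

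The Smc1b promoter is shown because its measured CpGs were already near 0 in the controls. Its RefSeq sequence (GRCm38.p6, minus strand) has the 4 CpGs read at full depth in capitals.
Smc1b, chr15:85131958-85132207, minus strand: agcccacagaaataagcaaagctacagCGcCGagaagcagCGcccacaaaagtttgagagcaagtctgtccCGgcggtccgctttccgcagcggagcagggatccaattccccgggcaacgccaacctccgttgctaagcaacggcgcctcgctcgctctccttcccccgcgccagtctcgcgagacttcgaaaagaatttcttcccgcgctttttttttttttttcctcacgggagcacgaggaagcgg
Smc1b was read at 10 positions and 0 were called. The 6 positions 178 to 275 bases before its start averaged 2.60%, 4.39% and 2.72% in the controls and 1.47%, 2.43% and 1.11% in KO. The 4 positions 242 to 285 bases after the start averaged 75.6%, 74.9% and 71.6% in the controls and 80.2%, 61.9% and 62.5% in KO, so these groups overlapped. Ribc2 starts 141 bases from Smc1b on the opposite strand. The 6 positions before the Smc1b start lie 36 to 134 bases after a Ribc2 start. No position nearer than 178 bases before the Smc1b start was read at full depth. Ribc2 had 4, 14 and 9 counts in the controls and 20, 14 and 15 in KO (adjusted p 0.221).

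Sycp2, Sycp3 and Mei1 were read in the first kilobase after the annotated start. Sycp2 had 96.2%, 91.6% and 92.1% in the controls and 80.0%, 67.9% and 95.8% in KO over 8 positions, of which 3 were called lower. KO 3, the library with the fewest calls, was the one within the control range. The largest called decrease in Sycp2 was at chr2:178407462, from 98.4% ± 2.82 to 80.9% ± 17.6 (SD, n = 3, adjusted p 0.0347). Sycp3 had 76.5%, 93.0% and 90.9% in the controls and 83.3%, 58.1% and 42.9% in KO over 3 positions, of which 1, at chr10:88460035, was called lower, from 97.0% ± 2.94 to 45.5% ± 17.9 (SD, n = 3, adjusted p 0.000694). Mei1 was read at 27 positions, of which 14 were called lower. Its annotated start in the promoter table, at chr15:82082476, lies inside the gene span. The 7 positions 671 to 780 bases after it averaged 87.5%, 88.1% and 89.2% in the controls and 78.1%, 55.8% and 57.9% in KO, and 8 positions 39067 to 39126 bases after the start averaged 96.0% ± 0.34 and 76.9% ± 1.71 (SD, n = 3). The 5 positions of Mei1 near the 5′ bound of its gene span, 12310 to 12360 bases before the annotated start, were already low in the controls. They averaged 19.3%, 20.4% and 10.6% in the controls and 10.5%, 3.37% and 8.0% in KO. Among them, chr15:82070124 and chr15:82070150 were called lower. No position of Dmc1 reached 10 calls in every sample, although 71 positions had a call in some sample. Those 26 to 45 bases after its start with a call in every P0 sample had 0% to 33.3% in the controls and 0% in KO, from 1 to 12 calls.

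**Figure D4:**
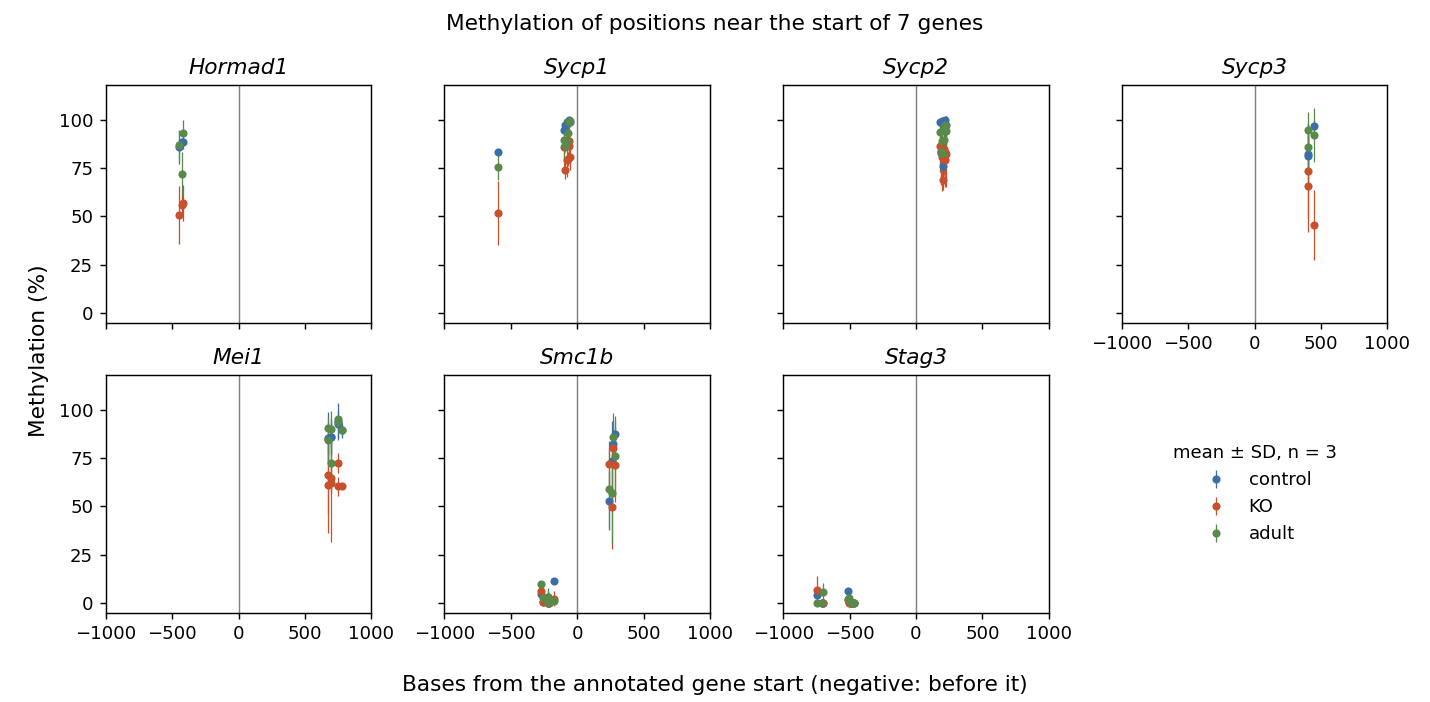
Methylation of each measured position within 1000 bases of the annotated start for the 7 genes with at least 3 such positions, by distance from the start, as mean and SD of 3 samples in control (blue), KO (orange) and adult (green). KO means lie below control means at every position shown of Hormad1, Sycp1, Sycp3 and Mei1 and at all but 1 of Sycp2 (82.7% in controls, 83.9% in KO), and values near 0 are shared by all groups before the starts of Smc1b and Stag3.

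Methylation calls were also summed per gene within 1000 bases of the start and tested over 10003 such windows. Of the 7 member windows, 3 were called lower in KO, against 6.73% of all windows. Of the 5 member windows with a control mean of at least 60%, 3 were called lower, against 68.7% of all such windows. The Hormad1 window went from 87.6% to 54.4% (adjusted p 0.00145), the Mei1 window from 88.2% to 63.9% (adjusted p 0.000181) and the Sycp1 window from 95.2% to 78.3% (adjusted p 0.000551). The Sycp2 window differed by -12.1 percentage points (adjusted p 0.0749), that of Sycp3 by -25.3 (adjusted p 0.0886), that of Smc1b by -3.25 (adjusted p 0.722) and that of Stag3 by -0.29 (adjusted p 1). The mean of the 7 windows was 69.1% ± 0.66 in the controls and 52.6% ± 5.99 in KO (SD, n = 3, two-sided exact permutation p 0.1, the smallest that 3 against 3 samples allow).

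RNA and methylation calls did not always go together across the 10 genes. Hormad1 was called in both, with RNA higher and its start window lower. Syce1 RNA was higher and 4 of its 4 positions, all far from the start, were lower. Sycp2 RNA was higher and 3 of its 8 positions were lower, while its window was not called. Sycp1 and Mei1 had start windows called lower, while RNA of the first did not pass and RNA of the second was too low to test. The Mei1 window surrounds an annotated start inside the gene span. Its measured positions near the 5′ bound of that span were low in the controls. Stag3 and Smc1b had RNA called higher, while methylation in the measured part of their start windows was low or not called. In Stag3, 7 of the 9 positions with a control mean of at least 60% were called lower, and in Smc1b 0 of 10 positions were. RNA of Rec8 and Sycp3 did not pass, while 3 of 5 positions of the first and 1 of 3 of the second were lower. The RNA and RRBS samples are separate samples, and no relation between the measures was tested.

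Wild type adults differed from the controls at few positions of these genes. Of 205 positions with at least 10 calls in every control and adult sample, 2 were called lower and 0 higher, against 1.98% lower and 1.90% higher over 704580 positions. At an unadjusted p under 0.05, 8 were higher and 7 lower. The mean of the 7 start windows was 69.8% ± 0.65 in the controls and 69.1% ± 0.47 in adults (SD, n = 3, two-sided exact permutation p 0.2), over more positions than in the comparison with KO. At the positions read in Hormad1, adults had 90.2%, 84.9% and 90.1%, all above every KO sample, and the second of them was below the lowest control. Both called positions lay in Mei1. At chr15:82121545 the controls had 98.8%, 94.2% and 100%, KO 75.0%, 85.5% and 85.4% and adults 0.00%, 2.86% and 50.8%, and the adult difference was -79.8 percentage points (adjusted p 5.09e-09). Its neighbours on each side stayed high in the same adults and were not called. These were chr15:82121543, with 100%, 97.1% and 98.5%, and chr15:82121560, with 97.7%, 100% and 92.3%. The second called position, at chr15:82072081, differed by -35.5 percentage points (adjusted p 0.042).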

How the data were processed

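The 6 RNA files hold raw read counts per gene, deposited by the authors, with reads aligned by STAR 2.4.1d and counted by HTSeq 0.6.1 on GRCm38 (mm10), per the submitters' processing notes. The 9 RRBS files hold, per cytosine, the methylation percent and the counts of methylated and unmethylated calls deposited by the authors. Trim Galore and Bismark are named in the submitters' processing notes, with versions not given in the sources used here. Of the positions that lay in RefSeq promoters, 99.649% were on a CpG of GRCm38.p6. Lines of unassigned reads (22.9% to 35.8% of a library) were left out.

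Gene counts were tested with edgeR 4.0.16 (quasi-likelihood, TMM, filterByExpr) in R 4.3.3 on the 3 control and 3 KO samples, with Benjamini-Hochberg adjustment over all genes tested at 0.05. A gene with no control read was set against a floor of 3 counts. For RRBS, a logistic model with quasi-binomial errors and moderated dispersion was fitted to each position that had 10 or more calls in each sample of a comparison, and a call needed an adjusted p under 0.05 and 10 percentage points. Start windows span 1000 bases on each side of the RefSeq start and need 3 positions. Window means used two-sided exact permutation tests. Both models were tested on simulated data. The floor covers counting error only, while intervals of fold changes include the spread between samples.

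The genes, lists and motifs were chosen with earlier results of these data known. All 10 genes and Dnmt1 are described. From each other list up to 4 genes called with the largest fold change are named, with Smc1a, Smc3, Rad21, Stag1 and Stag2 of the mitotic list and E2f6, Mga, L3mbtl2, Pcgf6, Uhrf1, Dnmt3a and Dnmt3b of the repressor list always named. In each gene region with a called position, the called position with the largest decrease is named. Of the recombination list, 4 symbols (Ankrd31, Spata22, Spo16 and Rnf212b) were not matched, and 1 further mitotic gene is not reported here. Alternatives changed the normalization, filter, test (DESeq2 1.42.0, limma 3.58.1), threshold, call minimum, dispersion, window and samples. Exon and UTR positions and gene lengths were not used here, so levels are not compared between genes.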

Additional observations from a re-analysis of the deposited data

How the results depend on the processing

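The number of members called higher in RNA was 5 and stayed at 4 to 7 in the alternatives run, except 2 when at least 10 counts were required in every sample, which leaves out Hormad1, Syce1 and Sycp2, and it was 4 to 7 when 1 library was left out. The count called lower was 0 in all of them. With the replicate number as a block, 4 members were called higher, 39 positions and 4 start windows were lower in KO, 2 positions differed in adults, and the mean window difference had a sign-flip p of 0.25 for KO (-16.5 points) and 0.25 for adults (-0.61 points). Same-numbered RNA libraries deviated in opposite directions (correlations of -0.28, -0.10 and -0.15) and no library correlated best with its own number, and in RRBS the mean correlation was -0.0032, so the numbers were not taken as pairs.

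The 40 positions lower in KO were 24 with at least 20 calls, 16 at 25 points or more and 23 to 37 when 1 library was left out, with 26 without control 2 and 23 without KO 2. The count higher was 1 with no overdispersion. The 2 adult positions were 1 with at least 5 or 20 calls or an adjusted p under 0.01, 19 with no overdispersion and 1 to 4 when 1 library was left out (4 without control 2, 1 without control 1, control 3, adult 1 or adult 3). The 3 start windows were 1 with at least 20 calls or 25 points, 5 with no overdispersion and 3 to 5 when 1 library was left out (5 without KO 3, the shallowest). The window mean was -25.9 points with at least 20 calls, against -16.5, over fewer windows.

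Signs changed for genes that were not called. In limma-voom Sycp1 was at 0.069, Sycp3 at 0.068 and L3mbtl2 at 0, and with upper quartile scaling Smc1a was at 0.017 and E2f6 at 0.001. Leaving out 1 library gave -0.912 (without KO 3) to 0.436 (without control 3) for Sycp1, -0.313 to 0.117 (without control 3) for Sycp3, also positive without KO 1 (0.057), -0.171 to 0.027 (without control 1) for Smc1a, -0.186 to 0.015 (without control 3) for E2f6 and -0.036 (without control 2) to 0.138 for Dnmt3a, also negative without KO 2 (-0.029). The cause was not tested. With at least 10 counts in every sample the lists called higher gave 0 axis, 1 synapsis, 3 recombination and 4 entry genes. The recombination list gave 3 without control 1 or KO 1 and at an adjusted p under 0.01. The mitotic list gave 1 with upper quartile scaling and 2 without control 3, and the repressor list gave 0 without KO 1 or KO 2 and 4 without control 3. Upper quartile scaling moved the median of all genes by 0.083. Mael was at 8.23 without control 3, Tex11 at 9.46 and Dazl at 10.22 without control 2, each from a few control reads. Depth limits Mei1 RNA, Dmc1 methylation and the Hormad1 promoter.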
